A study of Mus musculus with 8 samples.

Results

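The genes described here are 41 cell cycle genes, 18 of which are transcribed mainly in S phase (Pcna, Tk1, Mcm3, Mcm4, Mcm5, Mcm6, Rrm2, Hells, Tyms, Dut, Ung, Cdc6, Cdt1, Dtl, Ccne1, Ccne2, Clspn and Atad2) and 23 mainly in G2 and mitosis (Mki67, Top2a, Hmgb2, Birc5, Cdk1, Ccnb1, Ccnb2, Ube2c, Cenpf, Cenpa, Nusap1, Tpx2, Cdc20, Ccna2, Cks2, Cenpe, Prc1, Plk1, Aurka, Hmmr, Kif11, Cdca3 and Cdkn3). They were taken by gene symbol from the 32285 genes listed for every library, and all 41 were found and detected in all 8 libraries. The study asked how lymphatic vessels and stem cells of the mouse intestine communicate. Its libraries were 2 of small intestinal organoids at passage 1 from C57BL/6 mice, grown alone (control) or in coculture with a partner that the labels do not name, with epithelial cells sorted from 16 pooled wells each. Another 2 held live cells of digested small or large intestine, enriched by sorting for LGR5+ stem cells and for CD31+ PDPN+ LYVE1+ lymphatic endothelial cells, from C57BL/6 and Lgr5-eGFP-ires-CreERT2 mice. The remaining 4 were Visium sections, on a slide whose barcoded spots each capture RNA from a small patch of tissue, 2 technical duplicates each of small and large intestine of C57BL/6 mice.

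The cell cycle is driven by cyclin-dependent kinases, whose partner cyclins are made and destroyed in turn: cyclin E (Ccne1, Ccne2) starts DNA replication, cyclin A (Ccna2) carries it on and cyclin B (Ccnb1, Ccnb2) with Cdk1 starts mitosis. Genes for replication are switched on by E2F factors as a cell enters S phase, and many mitotic genes are repressed in resting cells by the DREAM complex and activated later by B-Myb and FOXM1, through promoter elements called the CHR and the CCAAT box. In the intestinal epithelium, division is confined to the crypts, where LGR5+ stem cells and their progenitor offspring cycle, while villus and surface cells have left the cycle.

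Promoters of the 41 genes were searched for the letters of these elements. RefSeq windows of GRCm38.p6, from 250 bases before to 50 bases after a transcription start, were given for 36 of the 41 genes (not for Ccna2, Ccne2, Tpx2, Atad2 and Mcm4). The letters searched on both strands were TTTCGCGC, TTTGGCGC, TTCCCGCC or GCGGGAA for E2F (the third, read on the other strand, contains the fourth), TTTGAA for the CHR and CCAAT for the CCAAT box. E2F letters were in 8 of 15 S genes (53.3%) and in 1 of 21 G2/M genes (Cdk1), against 6.10% of the 27025 genes with a window. CHR letters were in none of the 15 S genes and in 16 of 21 G2/M genes (76.2%), against 20.2% of all genes. Each of those 16 also held CCAAT, a pair found in 8.97% of all genes. CCAAT, with or without the other letters, was in 7 of 15 S genes, 19 of 21 G2/M genes and 41.1% of all genes.

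The 100 bases before the start show these arrangements, with E2F, CHR and CCAAT letters in capitals in either orientation. Of the S genes, Mcm6 (chr1:128359706-128359805, minus strand), Dtl (chr1:191575545-191575644, minus strand) and Hells (chr19:38930890-38930989, plus strand) carry E2F letters, while Tk1 (chr11:117826015-117826114, minus strand) and Tyms (chr5:30073626-30073725, minus strand) carry none of the letters in the whole window and are shown because they had the lowest median ratios among the S genes in the order of cells given further on. Dut, Ung and Ccne1 also carry none, and Ung and Ccne1 were among the S genes with the highest ratios. Of the G2/M genes, Cdc20 (chr4:118437344-118437443, minus strand), Ube2c (chr2:164769829-164769928, plus strand), Hmgb2 (chr8:57511743-57511842, plus strand), Top2a (chr11:99024190-99024289, minus strand) and Cdk1 (chr10:69352913-69353012, minus strand) show the CHR next to CCAAT boxes. All are written 5′ to 3′ on the strand of the gene.
Mcm6: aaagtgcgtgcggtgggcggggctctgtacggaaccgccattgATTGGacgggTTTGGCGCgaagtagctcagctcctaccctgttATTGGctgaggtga
Dtl: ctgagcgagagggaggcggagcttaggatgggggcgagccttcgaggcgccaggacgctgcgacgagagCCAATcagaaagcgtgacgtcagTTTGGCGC
Hells: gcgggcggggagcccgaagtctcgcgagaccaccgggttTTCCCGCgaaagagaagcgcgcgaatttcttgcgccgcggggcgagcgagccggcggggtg
Tk1: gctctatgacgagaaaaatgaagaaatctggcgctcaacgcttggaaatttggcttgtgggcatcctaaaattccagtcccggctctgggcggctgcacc
Tyms: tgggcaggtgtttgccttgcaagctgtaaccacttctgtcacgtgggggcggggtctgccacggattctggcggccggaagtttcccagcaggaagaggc
Cdc20: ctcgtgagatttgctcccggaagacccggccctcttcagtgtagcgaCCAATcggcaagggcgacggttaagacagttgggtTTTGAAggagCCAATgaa
Ube2c: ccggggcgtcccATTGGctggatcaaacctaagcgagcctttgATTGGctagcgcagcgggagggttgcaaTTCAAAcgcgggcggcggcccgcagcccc
Hmgb2: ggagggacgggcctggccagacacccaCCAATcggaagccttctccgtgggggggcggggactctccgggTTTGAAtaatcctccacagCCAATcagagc
Top2a: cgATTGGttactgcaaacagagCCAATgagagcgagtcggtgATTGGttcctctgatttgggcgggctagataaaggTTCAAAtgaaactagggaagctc
Cdk1: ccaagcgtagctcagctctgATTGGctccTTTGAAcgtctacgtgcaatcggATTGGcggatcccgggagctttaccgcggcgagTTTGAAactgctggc

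Depth and quality bore on all that follows. After filtering, 538 control and 1028 cocultured organoid cells were kept, with medians of 73663.5 and 86295 unique molecular identifiers (UMIs, each counting 1 captured RNA molecule). The tissue libraries held 2695 small intestinal cells (median 11810 UMIs) and 5882 large intestinal cells (median 21761 UMIs), and the sections held 2094 to 2571 spots. Every condition and tissue was 1 single-cell library, so none of the differences has a test, and every interval given is an exact 95% interval for counting error alone. The organoid libraries shared no cell barcode and the tissue libraries shared 2 among kept cells. The organoid cells were epithelial by their markers: 6 keratin and junction genes summed to 11488 and 7799.6 CPM (counts-per-million, here of UMIs), 8 fibroblast markers to 0.046 and 0.031 CPM, and 8 lymphatic markers to 1.94 and 3.59 CPM, with Mmrn1, Ccl21a, Reln and Pdpn at 0 in both.

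The summed cell cycle genes were most abundant in organoids and least abundant in sections of small intestine. Gene by gene, 31 of 41 were highest in an organoid library and 10 in large intestinal tissue (Tk1, Mcm6, Tyms, Ung, Dtl, Mki67, Cenpf, Tpx2, Cenpe and Cdkn3). Their lowest level was in a small intestinal section for 36, in small intestinal tissue for Pcna, Cdt1 and Ccne2, and in a large intestinal section for Ung and Atad2. Summed S genes stood at 1069.7 CPM in control and 969 CPM in cocultured organoids, at 449.9 CPM among small and 846 CPM among large intestinal tissue cells, at 348 and 363 CPM for the large intestinal sections and at 284 and 227 CPM for the small intestinal ones. Summed G2/M genes gave the same order of sample types, with 3065 and 3211 CPM in organoids, 1749 and 2773 CPM in tissue cells, 947 and 942 CPM in large intestinal sections and 707 and 494.5 CPM in small intestinal sections. Sections contain whole gut wall and the sorted tissue was enriched for stem cells, so these sums come from different mixtures of cells. The ratio of G2/M to S UMIs was highest in small intestinal tissue cells (3.89) and lowest in the second small intestinal section (2.18). Hmgb2, a chromatin protein that bends DNA, supplied the largest share of the G2/M sum in all 8 libraries, from 21.3% to 27.2% of its UMIs. Pcna, the sliding clamp of DNA polymerases, Rrm2, the small subunit of ribonucleotide reductase, or Dut, which removes dUTP, supplied the largest share of the S sum, between 13.9% and 30.7%. The least captured gene was Clspn, an adaptor of the replication checkpoint, with 47 UMIs in the second small intestinal section (1.56 CPM, 1.15 to 2.08).

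**Figure D1:**
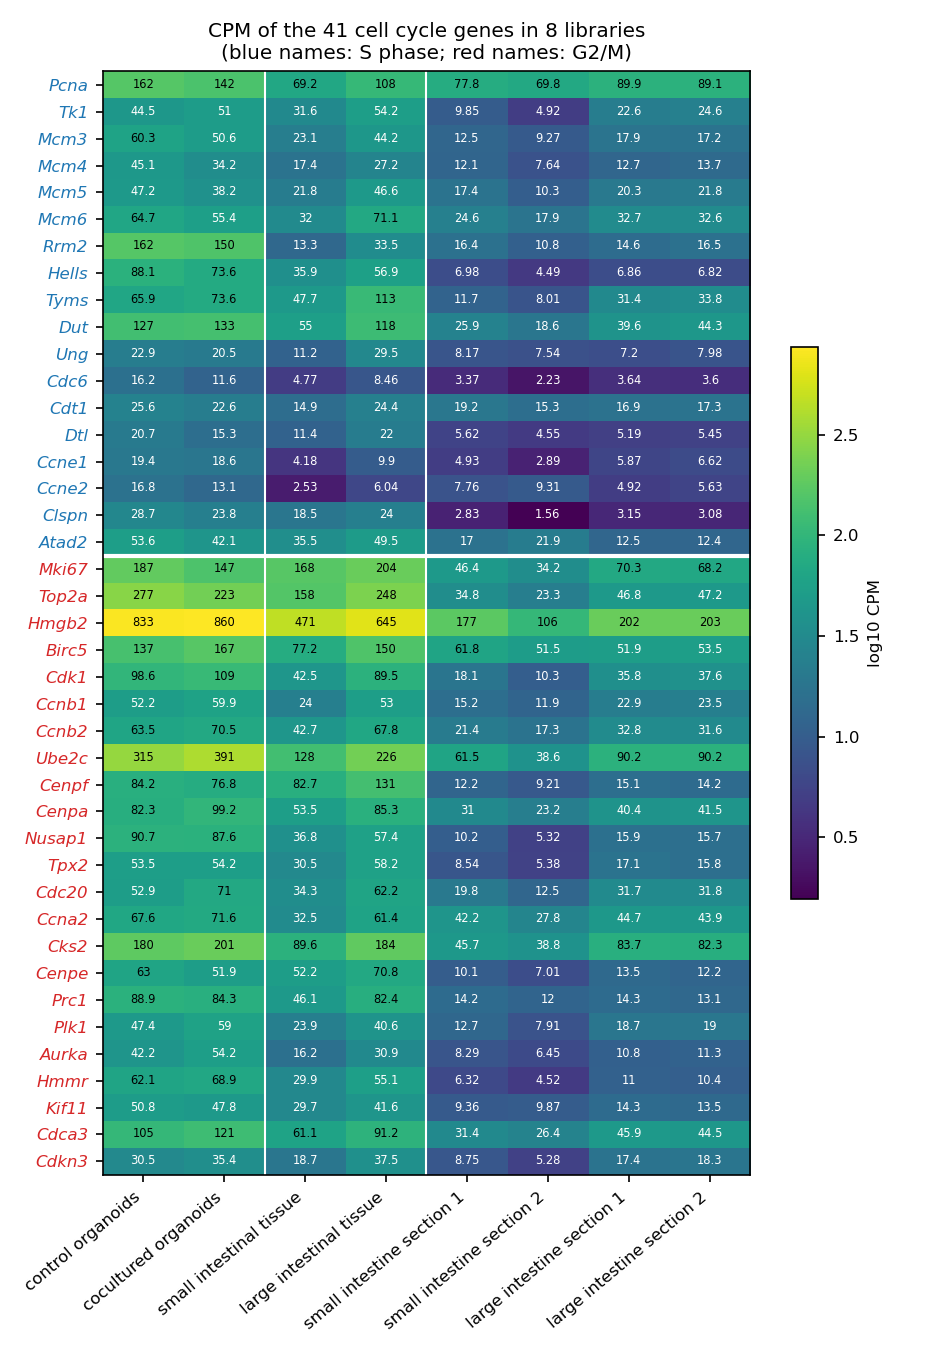
Level of each of the 41 genes (rows; S genes with blue names above, G2/M genes with red names below) in each of the 8 libraries (columns), in CPM, printed in each cell and coloured on a log10 scale. Hmgb2 has the largest value in every column, and the section columns are darker than the organoid columns for all genes.

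Whether each gene followed its phase was read within the epithelial cells of each single-cell library. Cells with 10 or more UMIs of the 41 genes were used: 433 of 538 control, 893 of 1028 cocultured, 727 of 1563 small intestinal and 2974 of 4394 large intestinal epithelial cells. This minimum was the same at every depth, and it kept a larger share of organoid than of tissue cells. Cells were ordered by their ratio of S to G2/M UMIs, leaving out the gene at hand. The CPM of that gene in the third of cells leaning to S was divided by that in the third leaning to G2/M. The order is made from the other members, so a member on its own side is not independent evidence of its phase. All 23 G2/M genes lay on the G2/M side by 2-fold or more in all 4 libraries, where 5.0%, 4.70%, 3.30% and 2.72% of all genes did so (in control organoids, cocultured organoids, small and large intestinal tissue). The steepest by the median of the 4 libraries was Hmmr, a spindle-binding protein, with log2 ratios of −6.01, −5.10, −5.20 and −5.95 in the same order of libraries. Cenpf, a kinetochore protein, was next by that median, with −5.78, −5.84, −4.50 and −4.93. The shallowest by it were Hmgb2 (−2.44, −1.98, −2.20 and −2.31), the topoisomerase Top2a (−3.04, −2.48, −2.24 and −2.38) and the kinase-binding subunit Cks2 (−2.41, −2.41, −2.49 and −2.46).

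The S genes were divided between the sides. They were on the S side in 14, 14, 15 and 15 of 18 cases, as did 38.8%, 40.9%, 26.4% and 47.2% of all genes, and by 2-fold or more in 5, 7, 12 and 12, where 8.25%, 7.31%, 1.67% and 1.35% of all genes did so. The steepest by the median were Ung, which removes uracil from DNA (1.51, 2.54, 4.01 and 3.77), the cyclins Ccne2 (1.61, 2.78, 3.89 and 3.51) and Ccne1 (1.32, 1.97, 4.04 and 3.23), and Cdc6, which loads the replicative helicase at origins (1.49, 2.36, 3.81 and 3.31). The E cyclins and Cdc6 act at the start of replication. Pcna and the helicase subunits Mcm3, Mcm4, Mcm5 and Mcm6 lay between, Pcna with 0.61, 0.81, 1.76 and 1.52.

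Single genes departed from the S group, by having the sign of the other phase or lying within 0.25 of 0 in at least 3 of the 4 libraries. These were 3 genes for DNA precursors: Tk1, the thymidine salvage kinase (−1.58, −1.25, −0.68 and −0.80), Tyms, which makes thymidylate (−1.18, −1.03, −0.32 and −0.31), and Rrm2 (0.04, −0.00, −0.10 and −0.35). No G2/M gene departed. The number departing was 0 when cells were first thinned to an equal depth, and 5 with cells of 5 or more UMIs of the 41 genes. Thinning was to 10000 UMIs in organoid and 2000 UMIs in tissue cells, with the minimum of 10 UMIs applied afterwards. It therefore also limited the order to cells with a larger share of these genes. Dut, another gene of that metabolism, was on the G2/M side in organoids (−0.75 and −0.56) and on the S side in tissue (0.62 and 0.52). In control organoids, the Tk1 level was 21.6 CPM in S-leaning and 64.4 CPM in G2/M-leaning cells. The sides also differed in how far their cells were in cycle: S-leaning cells had medians of 28, 31, 18.5 and 32 S UMIs with 14, 22, 12.5 and 14 G2/M UMIs, against 77.5, 99, 11 and 18 S UMIs with 685.5, 828, 190 and 241 G2/M UMIs in G2/M-leaning cells.

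Nor did any gene depart when the cells were limited to those in which the 41 genes made up at least 0.3% of UMIs, a limit added after these results were seen. In the 201, 438, 334 and 1463 cells left, all 18 S genes lay on the S side in all 4 libraries, where 52.7%, 49.6%, 38.9% and 44.2% of all genes did so. By 2-fold or more they did so in 15, 14, 18 and 16 of 18 cases, against 1.68%, 1.63%, 3.12% and 2.78% of all genes. The G2/M genes lay nearer to 0 than before: 22, 22, 19 and 22 of 23 were on the G2/M side by 2-fold or more, against 2.78%, 2.21%, 3.01% and 2.47% of all genes. Hmgb2 was at −0.77, −0.71, −0.65 and −1.06, and Top2a was nearest to 0 in the small intestine (−0.07, −0.15 to 0.02). In these cells the precursor genes were the lowest of the S group: Tk1 (0.09, 0.24, 1.34 and 0.61), Tyms (0.47, 0.30, 1.40 and 0.82), Rrm2 (0.48, 0.56, 2.12 and 1.52) and Dut (1.14, 0.97, 2.16 and 1.62) were the 4 lowest S genes in every library. That was not so in every library under the first choice of cells. There, Atad2 (−0.21) was below Rrm2 in control organoids, and Clspn was below Dut in small (0.34) and large (0.46) intestinal tissue. Ccne1 (4.23, 4.64, 6.07 and 6.09) and Ung (4.60, 5.03, 4.88 and 4.68) were among the highest. The Ccne1 value of the small intestine rests on 136 UMIs against 2 (interval 4.19 to 9.13). Tk1 was the lowest S gene in all 4 libraries under both choices of cells, and the sign of its ratio depended on that choice.

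**Figure D2:**
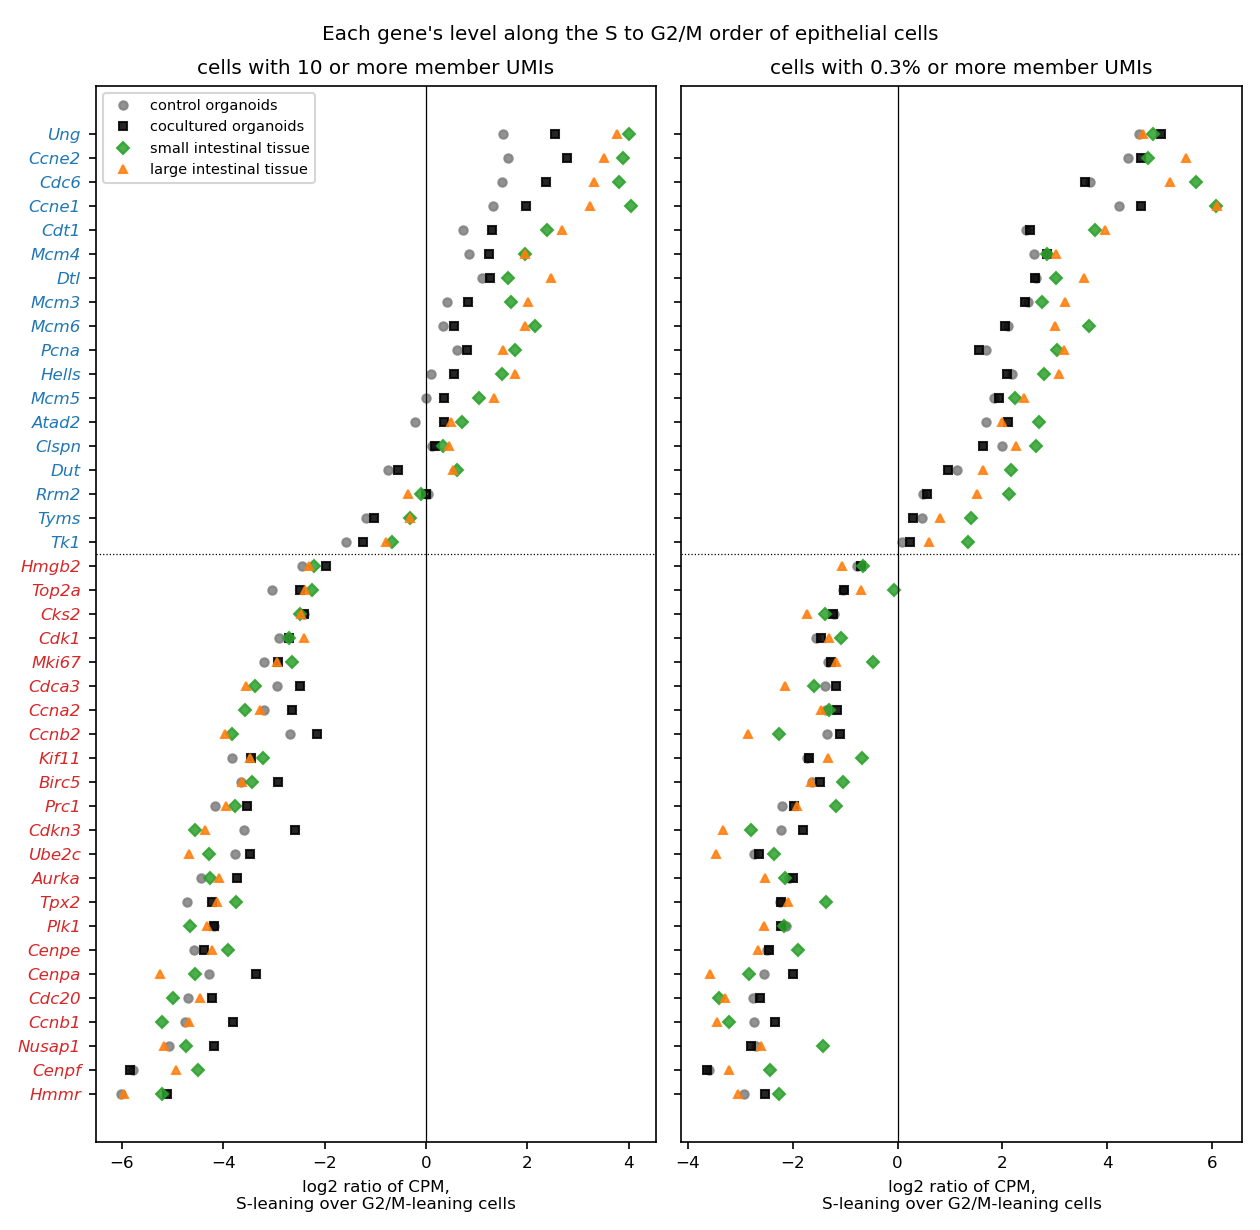
The log2 ratio of each gene's CPM in S-leaning over G2/M-leaning epithelial cells (x axis) in the 4 single-cell libraries (symbols), for cells with 10 or more UMIs of the 41 genes (left) and for cells in which these genes make up 0.3% or more of UMIs (right). Tk1, Tyms and Rrm2 lie near or left of 0 in the left panel and right of 0 in the right panel, where they are the 3 lowest S genes, and all G2/M genes lie left of 0 in both.

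Other cell cycle genes were read along the same order. Of 29 further mitosis genes, such as the kinetochore gene Ndc80 and the kinase Aurkb, 28 lay on the G2/M side by 2-fold or more in all 4 libraries, the exception being Pttg1, which encodes securin. The share of all genes doing so was 5.0%, 4.70%, 3.30% and 2.72%. Of 23 further replication genes, 0, 0, 6 and 7 lay on the S side by 2-fold or more, against 8.25%, 7.31%, 1.67% and 1.35% of all genes. Mcm2, Uhrf1 and Slbp were among them in both tissues. With the 0.3% limit, these counts were 17, 16, 21 and 21 of 23 replication genes (1.68%, 1.63%, 3.12% and 2.78% of all genes), and 24, 24, 15 and 23 of 29 mitosis genes were on the G2/M side by that fold. In the first choice of cells, E2f1, an activator of replication genes, had ratios of 0.85, 1.48, 3.24 and 2.95, and Foxm1, an activator of mitotic genes, −3.59, −2.73, −2.88 and −3.19. Among 8566 genes with enough UMIs in every library, the non-members furthest to the G2/M side were Prr11, Kif14, Pif1, Aspm and Pimreg, with least extreme ratios from −4.96 to −4.51. Those furthest to the S side were Ltc4s, Abcc5, Cacna1a, Nupr1 and Tonsl, with least extreme ratios from 1.32 to 0.91. Only Tonsl of these is known for a part in replication, and Ltc4s marks tuft cells.

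Cocultured and control organoids differed little in these genes, and the S and G2/M sums differed in opposite directions. The S sum was 1069.7 CPM in control and 969 CPM in cocultured organoids, a log2 ratio of −0.14 (−0.16 to −0.13), and the G2/M sum was 3065 and 3211 CPM, a log2 ratio of 0.07 (0.06 to 0.08). None of the 41 genes differed by 1.5-fold in either direction, where 2.99% of 11189 genes with 100 or more UMIs were higher and 7.26% lower by that much. The median of all genes was −0.09, and 14 of 18 S genes lay below it and 19 of 23 G2/M genes above it. Scaling by the median of ratios across genes moved every gene up by 0.15, which put the S sum at 0.00 and the G2/M sum at 0.21.

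Among the S genes, 15 of 18 were lower in coculture under scaling by total UMIs, and 13 under either other scaling (median of ratios, or CPM averaged over cells). The lowest ratios were those of Cdc6 (16.2 CPM in control, 11.6 CPM in coculture, log2 ratio −0.48), Dtl, which targets the origin factor Cdt1 for destruction (20.7 and 15.3 CPM, −0.43), and Mcm4 (45.1 and 34.2 CPM, −0.40). Pcna was at 162 and 142 CPM (−0.19). The 3 genes with higher levels were Tk1 (44.5 and 51.0 CPM, 0.20), Tyms (65.9 and 73.6 CPM, 0.16) and Dut (127 and 133 CPM, 0.06). All 3 act in DNA precursor metabolism. Rrm2 was at 162 and 149.6 CPM (−0.11).

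Among the G2/M genes, 16 of 23 were higher in coculture under scaling by total UMIs, 18 with CPM averaged over cells and 20 under the median of ratios. The 5 highest ratios were those of Cdc20, which activates the anaphase-promoting complex (52.9 CPM in control, 71.0 CPM in coculture, log2 ratio 0.42), the kinases Aurka (42.2 and 54.2 CPM, 0.36) and Plk1 (47.4 and 59.0 CPM, 0.32), Ube2c, the ubiquitin-conjugating enzyme of that complex (315 and 391 CPM, 0.31), and Birc5, which encodes survivin (137 and 167 CPM, 0.29). The lowest were Mki67, the proliferation marker (187 and 147 CPM, −0.35), Top2a (277 and 223 CPM, −0.32) and the kinesin Cenpe (63.0 and 51.9 CPM, −0.28), which were lower in coculture under all 3 scalings. Hmgb2 was at 833 and 859.5 CPM (0.04).

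**Figure D3:**
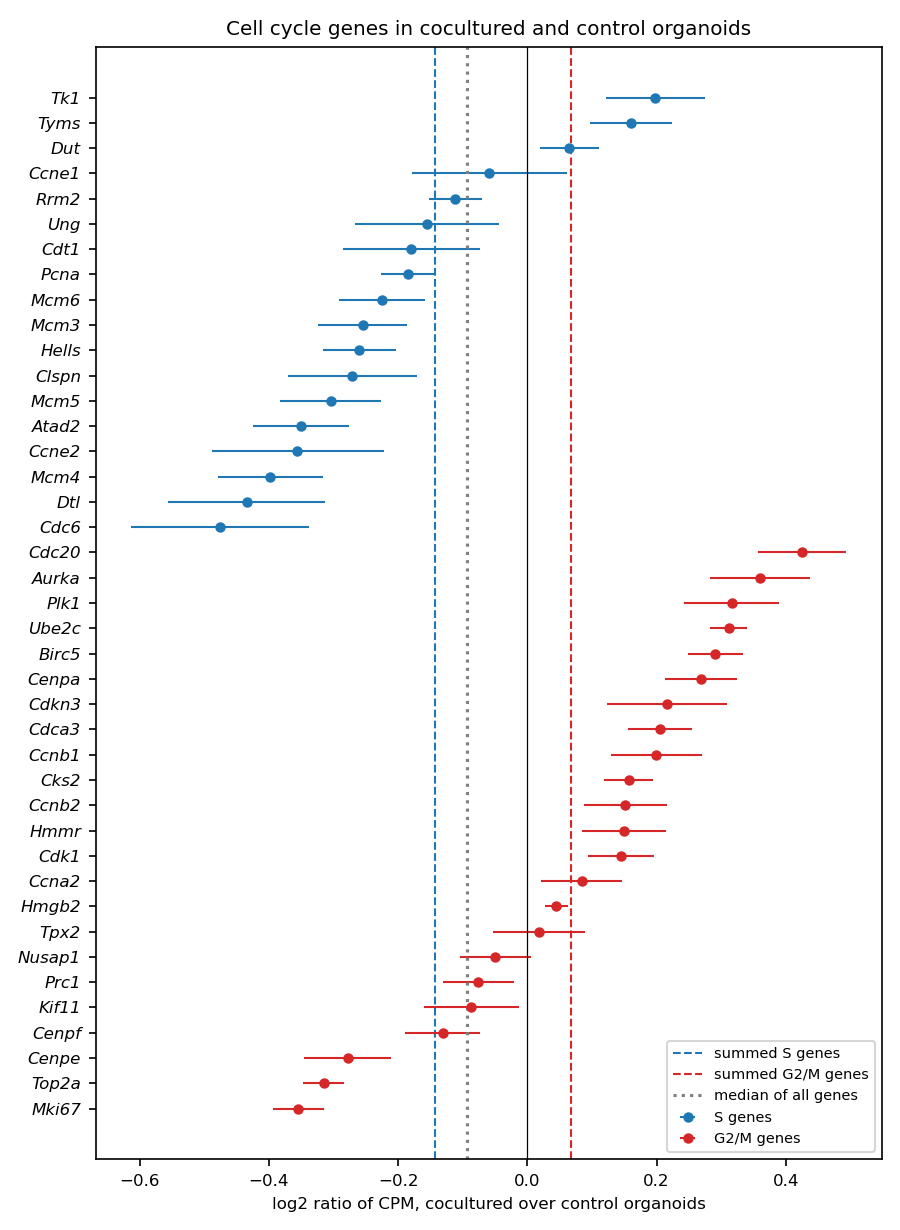
Log2 ratio of CPM in cocultured over control organoids (x axis) for each S gene (blue) and G2/M gene (red), with exact 95% intervals for counting error; dashed lines mark the summed S and G2/M genes and the dotted line the median of all genes. Most S genes lie left of 0 apart from Tk1, Tyms and Dut, and G2/M genes run from Mki67 at −0.35 to Cdc20 at 0.42.

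The makeup of the organoids differed between the libraries, and the cell cycle sums were read in each cluster of cells, made without cell cycle genes. Stem-like cells, with Olfm4 and Axin2 among their leading genes, were 58 in control and 77 in coculture, with S sums of 1813 and 1766 CPM (log2 ratio −0.04, −0.07 to −0.00) and G2/M sums of 3619 and 4519 CPM (0.32, 0.30 to 0.34). The largest difference was in an unnamed cluster led by Nmral1, Ung and Srm (24 and 131 cells), with 2669 and 5178 CPM of G2/M genes (0.96). Paneth-like cells (26 and 61 cells) had lower S sums in coculture (1088 and 661 CPM, −0.72). A further cluster without a name, whose leading genes were Ly6d, Sprr1a and Clu (83 and 36 cells), had lower G2/M sums in coculture (472 and 272 CPM, −0.79). Of the 12 clusters with 20 or more cells in both libraries, one of the enterocyte-like clusters had the lowest G2/M sums, 116 and 129.8 CPM. Across the 12 clusters, the interval of the S ratio lay above 0 in 2 and below 0 in 6, and that of the G2/M ratio above 0 in 7 and below 0 in 3. With the cluster levels of both libraries weighted by the control makeup, the S ratio was −0.11 and the G2/M ratio 0.11. With both weighted by the coculture makeup they were −0.13 and 0.26. At an equal depth of 10000 UMIs, the median cell had 5.5 S and 8 G2/M UMIs in control and 5 and 12 in coculture. Stem markers summed to 907 CPM in control and 571 CPM in coculture, and their part in these differences was not tested.

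Other cell cycle genes differed little between the organoid libraries. Of the 7 lists of such genes, no gene was higher in coculture by 1.5-fold, and 2 were lower: Cdk6, a kinase of the G1 phase (45.5 CPM in control, 29.9 CPM in coculture, −0.60), and Gins3, a part of the replicative helicase (5.38 and 3.57 CPM, −0.59). The medians of the lists lay between −0.18 (6 regulators of G2/M genes) and −0.03 (7 inhibitors of cyclin-dependent kinases).

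In the sorted tissue, both phases were concentrated in the crypt clusters of the epithelium. In the small intestine, a stem-like cluster of 313 cells (Lgr5 at 109 CPM) had 1371 CPM of S genes (1345 to 1396) and 5185 CPM of G2/M genes (5136 to 5235). A progenitor-like cluster of 195 cells, with high levels of ribosome-building genes and Lgr5 at 0.51 CPM, had 1102 CPM (1075 to 1129) and 5399 CPM (5340 to 5458). They were 11.6% and 7.24% of kept cells but supplied 46.7% and 35.0% of all G2/M UMIs, in a library whose cell numbers were set in part by the sorts. Differentiated cells were far lower: enterocyte-like cells had 92.4 CPM of S and 218 CPM of G2/M genes, Paneth-like cells 68.6 and 182 CPM, tuft-like cells 131 and 251 CPM, and goblet-like cells 167 and 635 CPM. Enteroendocrine-like cells had 223 and 1387 CPM, but 1 of their 32 cells held 0.5 or more of the G2/M UMIs.

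The large intestine had several clusters at nearly the same high level. Its 1154 stem-like cells had 1417 CPM of S genes (1405 to 1430) and 4502 CPM of G2/M genes (4479 to 4525). An unnamed cluster of 472 cells led by Fut9 and Defb45, with Lgr5 at 24.5 CPM, had 1398 and 4436 CPM. Another of 204 cells led by Ces1g and Muc16, with Lgr5 at 4.85 CPM, had 1358 and 4654 CPM. The 2 stem-like clusters had Lgr5 at 34.4 and 68.4 CPM. Goblet-like cells of the large intestine stood at 509 and 2124 CPM, against 167 and 635 CPM for those of the small intestine. Their 4 clusters in the large intestine had 2530, 2507, 506 and 221 CPM of G2/M genes, and their 3 clusters in the small intestine 1447, 387 and 116 CPM, with 3 cells holding 0.5 or more of the UMIs of the first. Colonocyte-like cells ranged from 97.5 CPM of S and 311 CPM of G2/M genes in 1 cluster to 768 and 2564 CPM in another. These values come from 1 library per tissue, and the share of stem cells, set by the sort, was not matched between them.

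**Figure D4:**
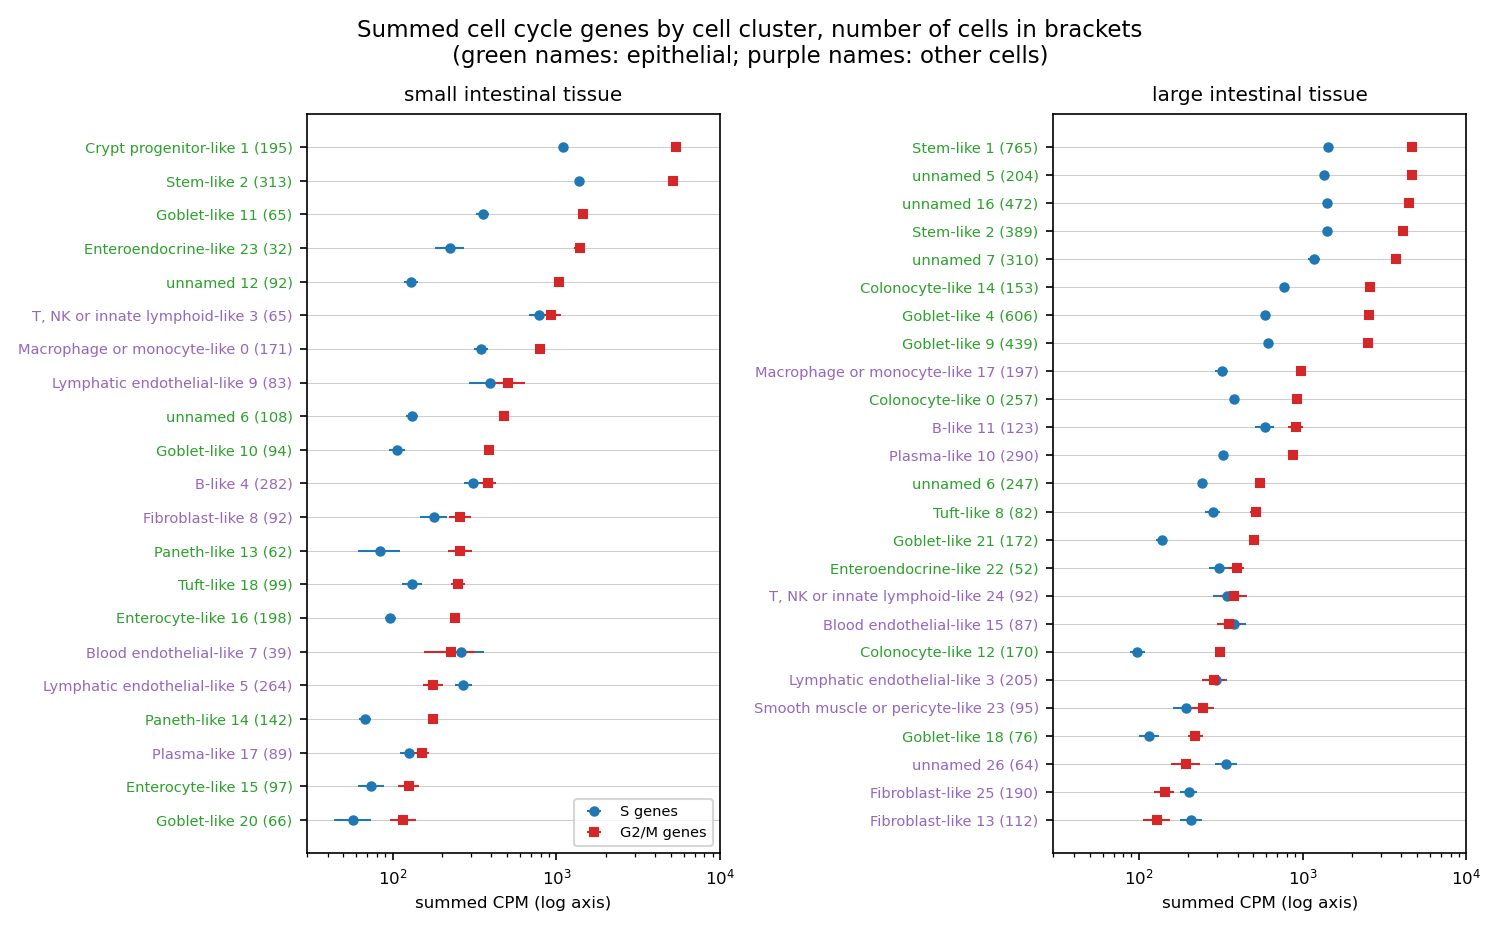
Summed S genes (blue circles) and G2/M genes (red squares) in CPM on a log axis, for each cluster of 20 or more cells in the tissue libraries, with exact 95% intervals for counting error. Among the clusters shown, the stem-like and progenitor-like ones top the small intestine, and 5 clusters share the top of the large intestine. The lowest of these 5 in G2/M genes (3740 CPM) is an unnamed cluster of 310 cells at a median of only 1292 UMIs. S and G2/M genes lie close together in lymphatic and blood endothelial cells and fibroblasts.

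Cells outside the epithelium had lower sums in both tissues. Epithelial cells had 468 CPM of S and 1923 CPM of G2/M genes in the small intestine, against 330.1 and 597 CPM in other cells. In the large intestine the values were 908 and 3016 CPM against 303 and 633 CPM. Lymphatic endothelial-like cells, one target of the sort, had 283 CPM of S and 212 CPM of G2/M genes in the small intestine and 297 and 287 CPM in the large intestine. Of their 2 clusters in the small intestine, one had fewer G2/M than S genes (177 and 271 CPM). The other, of 83 cells at a median of 1295 UMIs, held only 66 G2/M and 51 S UMIs (507 and 392 CPM). The intervals of these sums overlapped (392 to 645 and 292 to 515 CPM), so no direction can be read from that cluster. The ratio of G2/M to S UMIs in epithelial clusters ran from 1.70 to 7.97 in the small intestine, and from 1.29 (enteroendocrine-like cells) to 4.32 in the large intestine. The value of 7.97 was that of an unnamed cluster in which 5 of 92 cells held 0.5 or more of the G2/M UMIs. In clusters of 20 or more cells outside the epithelium the ratio ran from 0.66 to 2.29 and from 0.57 to 3.04, so the ranges overlapped. Both upper ends were macrophage- or monocyte-like cells, of which 2 of 171 and 4 of 197 held 0.5 or more of the G2/M UMIs. The next highest ratios were 1.45 (fibroblast-like cells), below the epithelial range of the small intestine, and 2.68 (plasma-like cells) in the large intestine. A cluster of 18 B-like cells of the small intestine, too few for the plot by cluster, had higher sums than any cluster shown (2848 CPM of S and 8614 CPM of G2/M genes).

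Against the rest of the epithelium, stem-like cells had higher levels of every one of the 41 genes. In the small intestine the log2 ratio of the S sum was 2.35 (2.32 to 2.39) and that of the G2/M sum 2.11 (2.09 to 2.13), and all 18 S and all 23 G2/M genes were 1.5-fold or more higher. The background was high, since 42.3% of 10316 genes passed that fold and the median of all genes was 0.42. The highest ratios were those of Dtl (48.4 and 4.12 CPM, 3.55), Hells, a chromatin remodeller (140.3 and 16.6 CPM, 3.08), and Mcm4 (59.7 and 8.41 CPM, 2.83), and the lowest was that of the phosphatase gene Cdkn3 (39.4 and 16.1 CPM, 1.29). In the large intestine the ratios were 1.04 (1.02 to 1.05) for S and 0.92 (0.91 to 0.93) for G2/M genes, and 17 of 18 S and 23 of 23 G2/M genes passed 1.5-fold, against 18.1% of 11885 genes with a median of 0.07. The exception was Ccne2 (8.10 and 5.71 CPM, 0.51). The rest of the large intestinal epithelium included the unnamed clusters with levels like those of stem-like cells.

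Regulators of the cycle outside the 41 genes differed in both directions. All 23 further replication genes passed 1.5-fold higher in stem-like cells of both tissues, as did 29 and 27 of 29 further mitosis genes. For these and the other genes of this paragraph, the share of all genes passing that fold higher was 42.3% in the small and 18.1% in the large intestine. Of 6 G1 cyclins and their kinases, 5 were higher by that fold in the small and 3 in the large intestine, where Ccnd3 was lower. Cdk6 had 164 CPM in stem-like cells and 17.5 CPM in the rest of the small intestinal epithelium, and was higher in both tissues. The 7 inhibitors of cyclin-dependent kinases were divided. Cdkn1a, Cdkn1c and Cdkn2b were lower by 1.5-fold or more in both, where 17.1% of all genes were so in the small and 19.8% in the large intestine. Cdkn1a, which encodes p21, was at 13.3 CPM in stem-like cells and 166 CPM in the rest in the small intestine (log2 ratio −3.65), and at 6.17 and 101 CPM in the large intestine (−4.03). Cdkn2c was higher by that fold in both (1.81 and 0.76), Cdkn1b (0.99) and Cdkn2d (0.77) were so in the small intestine and at 0.09 and −0.47 in the large, and Cdkn2a had 0 UMIs in the stem-like cells of both. Rb1, which holds E2F factors inactive, was lower in stem-like cells of both (−1.16 and −0.76).

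Within the small intestinal crypt, progenitor-like and stem-like cells had nearly equal G2/M sums and different S genes. The log2 ratio of progenitor-like over stem-like cells was −0.32 (−0.36 to −0.27) for the S sum and 0.06 (0.04 to 0.08) for the G2/M sum. Of the S genes, 5 were lower by 1.5-fold or more: Dtl (18.9 CPM in progenitor-like, 48.4 CPM in stem-like cells, −1.36), Mcm4 (−0.87), Hells (−0.85), the helicase loader Cdt1 (−0.83) and Ung (−0.66). Of all genes, 14.1% were lower and 9.84% higher by that much. Rrm2 was the 1 S gene higher by that fold (49.3 and 30.5 CPM, 0.69). Tk1 was at 107 and 91.5 CPM (0.23) and Tyms at 136 and 138 CPM (−0.02). Among the G2/M genes, Cdkn3 was higher by more than 1.5-fold (65.6 and 39.4 CPM, 0.73), Birc5 (0.58) and Cdca3 (0.56) followed, and Cenpf (−0.49) and Top2a (−0.35) were lowest.

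Cells were also divided by whether an Lgr5 UMI was detected in them, which does not mark stem cells alone. The tissue came from C57BL/6 and Lgr5-eGFP-ires-CreERT2 mice, the latter with a reporter inserted at Lgr5, and which cells came from which is not given in the sources used here. With every cell reduced to 2000 UMIs, 20.1% of stem-like cells of the small intestine had an Lgr5 UMI (15.7 to 25.0), against 8.08% of tuft-like (3.55 to 15.3), 2.33% of lymphatic endothelial-like and 0.34% of enterocyte-like cells. In the large intestine the shares were 8.72% (7.15 to 10.5) in stem-like, 6.58% (2.17 to 14.7) in tuft-like and 0.76% in colonocyte-like cells. Before that reduction, at medians of 24271 and 29877 UMIs, the shares of stem-like and enterocyte-like cells were 66.5% and 1.36%, and at medians of 27096 and 25860 UMIs those of large intestinal stem-like and colonocyte-like cells were 51.7% and 4.14%.

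At 2000 UMIs, small intestinal epithelial cells with an Lgr5 UMI (87 cells) had 1.97 S and 4.99 G2/M UMIs per cell, against 0.85 and 3.42 in the 1414 cells without (log2 ratios 1.22, 0.98 to 1.45, and 0.55, 0.40 to 0.69). In the large intestine the ratios were 0.50 and 0.45 (141 and 3799 cells). Within the stem-like cluster of the small intestine, cells with and without an Lgr5 UMI (61 and 243 cells) differed by 0.04 in S genes (−0.22 to 0.29), and G2/M genes were lower with Lgr5 (6.85 and 9.58 UMIs per cell, −0.48, −0.64 to −0.33). Mki67 taken alone differed there by 0.04 (−0.41 to 0.46). Within the stem-like cells of the large intestine the ratios were −0.20 (−0.39 to −0.01) and −0.06 (−0.17 to 0.05), and that of Mki67 was 0.55 (0.17 to 0.91). Few organoid cells had an Lgr5 UMI at 10000 UMIs, and the libraries differed in sign. The 25 such cells of control organoids had more S and G2/M genes than the 425 others (0.34, 0.16 to 0.51, and 1.21, 1.13 to 1.30). The 11 of cocultured organoids had fewer than the 908 others (−0.46, −0.82 to −0.12, and −0.58, −0.80 to −0.38). Of these, 7 control cells and 1 cocultured cell were stem-like, and the 7 differed from 49 other stem-like control cells by −0.09 in S (−0.38 to 0.19) and 0.01 in G2/M genes (−0.19 to 0.21).

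In the Visium sections, both sums were higher in large than in small intestine. A spot can hold many cells, and fewer dividing cells cannot be told apart from less RNA per cell. The makeup of the tissues also differed. Smooth muscle genes summed to 6764 and 8936 CPM in small intestine, against 1580.5 and 1565 CPM in large. Crypt genes were higher in small intestine too, with 523 and 419 CPM against 177 and 176 CPM. The part of this makeup in the difference between the tissues was not tested. The log2 ratio of small over large intestine, over the means of the duplicates, was −0.48 for S and −0.65 for G2/M genes. It was −0.29 and −0.42 over the first sections alone, and −0.68 and −0.93 over the second sections alone. Of the G2/M genes, 21 of 23 were lower in both small intestinal sections than in both large ones, with Birc5 and Prc1 overlapping, and 8 were lower by 1.5-fold or more between the nearest sections. Of the S genes, 11 of 18 were lower without overlap (3 by 1.5-fold or more), 2 were higher and 5 overlapped. Over all genes, 46.7% were lower and 40.7% higher without overlap, and 20.3% were lower by 1.5-fold.

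The largest differences between the tissues were in Tyms and Tk1. Tyms had 11.7 and 8.01 CPM in the first and second small intestinal section, against 31.4 and 33.8 CPM in the large intestine (log2 ratio −1.73). Tk1 had 9.85 and 4.92 CPM against 22.6 and 24.6 CPM (−1.68). Among the G2/M genes, Cdk1 had 18.1 and 10.3 CPM against 35.8 and 37.6 CPM (−1.37), and Cdkn3 8.75 and 5.28 CPM against 17.4 and 18.3 CPM (−1.35). The S genes higher in the small intestine were Ccne2 (7.76 and 9.31 CPM against 4.92 and 5.64 CPM, 0.69) and Atad2, a chromatin ATPase (17.0 and 21.9 CPM against 12.5 and 12.4 CPM, 0.64). They were also the only S genes lower in the first than in the second small intestinal section. The large intestinal duplicates differed little, with median log2 ratios of −0.09 for S and 0.01 for G2/M genes. The first small intestinal section was above the second for 16 of 18 S and 22 of 23 G2/M genes, with medians of 0.51 and 0.48. Crypt genes summed to 523 CPM in the first and 419 CPM in the second, and smooth muscle genes to 6764 and 8936 CPM, whose part in this difference was not tested.

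Within the sections, the sums followed the crypt regions. In the small intestine, a spot cluster led by Gsdmc3 (cluster 4), with the mitotic kinase genes Nek2 and Melk among its leading genes, had the highest G2/M sums (1699 and 1398 CPM in the 2 sections) with S sums of 531 and 446 CPM. It covered 24.1% and 23.5% of spots and held 47.5% and 46.0% of G2/M UMIs. A cluster led by the defensin genes of Paneth cells (cluster 5), with the highest Lgr5 levels (29.3 and 27.3 CPM), had S sums of 519.5 and 507 CPM but lower G2/M sums (1179.5 and 1064 CPM). A cluster led by the enterocyte gene Sis and by Bhmt had the lowest sums (113 and 115 CPM of S, 192 and 164 CPM of G2/M genes). In the large intestine, a cluster led by Cps1 and Defb45 (cluster 2) was highest in both sections, with S sums of 780.1 and 856 CPM and G2/M sums of 2276 and 2222 CPM. The cluster led by the lymphatic genes Mmrn1 and Ccl21a (cluster 1), with the highest Lgr5 levels of that tissue (12.0 and 11.4 CPM), had lower S sums (664 and 690.1 CPM) and lower G2/M sums (1521 and 1405 CPM).

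**Figure D5:**
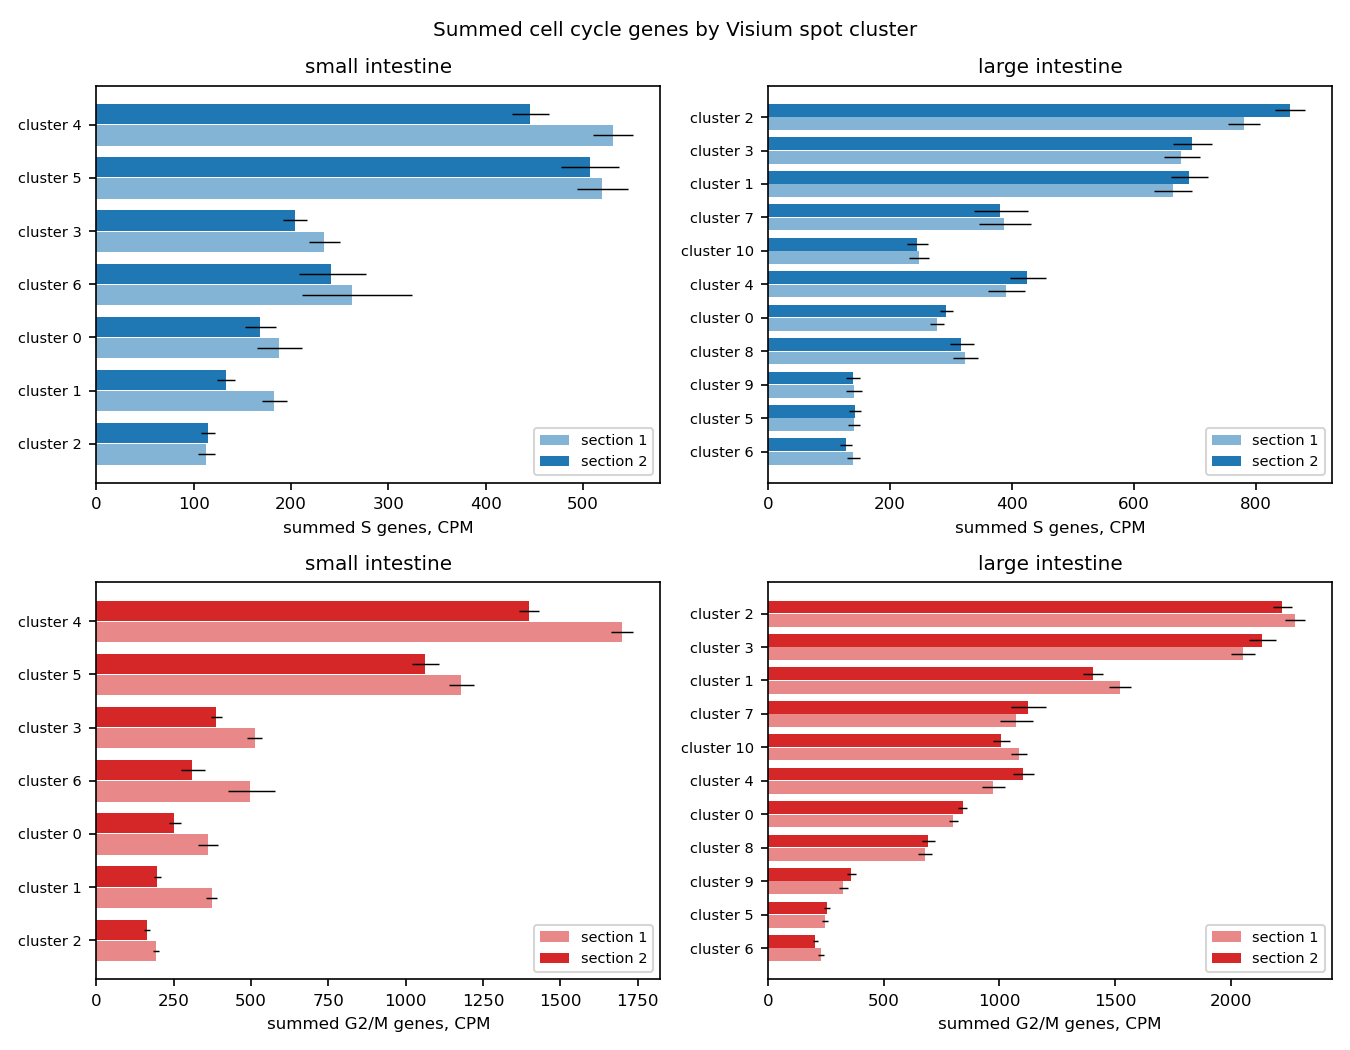
Summed S genes (upper panels, blue) and G2/M genes (lower panels, red) in CPM for each cluster of spots, named by number, in the first (pale) and second (dark) section of each tissue, with exact 95% intervals for counting error. Clusters 4 and 5 of the small intestine and 1, 2 and 3 of the large intestine stand above the rest in both sections.

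A further split set spots with a UMI of 1 or more crypt genes against all others. The crypt genes were Lgr5, Ascl2, Olfm4, Slc12a2, Smoc2 and Gkn3, and every spot was first reduced to 2000 UMIs. In the small intestine, spots with such a UMI had more S genes (log2 ratios 1.01 and 1.10 in the 2 sections) and more G2/M genes (1.18 and 1.36). In the large intestine the ratios were 0.85 and 0.78 for S and 1.02 and 0.95 for G2/M genes. All 23 G2/M genes were above 0 in both sections of either tissue, as were 18 of 18 S genes in the small and 15 of 18 in the large intestine. Of all genes with 100 or more UMIs, 42.1% were so in the small and 43.6% in the large intestine. Passing 1.5-fold in both sections were 16 of 18 S and 21 of 23 G2/M genes in the small intestine, where 14.8% of genes with 100 or more UMIs did so, and 7 of 18 and 19 of 23 in the large intestine, where 3.59% did so. At that depth 1 S and 8 G2/M genes reached 100 UMIs themselves in the small intestine, and 1 and 7 in the large intestine.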

How the data were processed

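The deposited single-cell and Visium matrices hold raw UMI counts per gene and cell barcode or spot, made with Cell Ranger 6.0.1 on mm10 per the submitters' processing notes, and with Space Ranger 1.2.1 for the sections per the file headers. Cells needed 500 genes, and no more than 20% of their UMIs could be mitochondrial. The highest Scrublet scores (0.8% of cells per 1000 cells) were removed as doublets. Spots needed 500 UMIs. Cells and spots were clustered (scanpy 1.11.5, Leiden) without cell cycle genes, organoids at resolution 1 as were tissue cells, sections at 0.5, and clusters were called by marker lists that hold no cell cycle gene. UMIs were summed and given as CPM with exact Poisson intervals, and ratios with exact conditional intervals. A gene entered the share of all genes past a fold with 100 or more UMIs in the higher group; all 41 members are counted whether or not they reached it. UMIs are not divided by transcript length. No tests were made, as each group is 1 library or 2 technical duplicates. The code recovered known changes in simulated data. Non-members were named by rank or by passing a fold. The members, lists and rules were chosen with earlier results of these data known.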

Additional observations from a re-analysis of the deposited data

Results flagged for a closer look

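Dut moved one way in organoids and the other way in tissue. Its log2 ratio of S-leaning over G2/M-leaning cells was −0.75 in control organoids and −0.56 in cocultured organoids, and 0.62 in small and 0.52 in large intestinal tissue. The difference between organoids and tissue was not tested. In cells with at least 0.3% of UMIs from the 41 genes, the ratio was above 0 in all 4 libraries (1.14, 0.97, 2.16 and 1.62).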

How the results depend on the processing

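The S ratio of cocultured over control organoids was −0.14 and moved to −0.19 with stricter cells (1000 genes, 10% mitochondrial UMIs), −0.12 without mitochondrial and ribosomal protein genes, −0.077 with CPM averaged over cells, −0.24 as the median of the members and −0.11 with the control makeup of clusters (−0.13 with the coculture makeup), and its sign reversed (0.0024) under the median of ratios. The G2/M ratio, 0.07, became 0.078 with looser cells (200 genes, 50% mitochondrial UMIs), 0.026 with stricter cells, 0.086 without mitochondrial and ribosomal protein genes, 0.16 as the mean of cells, 0.21 under the median of ratios, 0.15 as the median of the members and 0.11 with the control or 0.26 with the coculture makeup. Both makeups, the sum without Hmgb2 and the 0.3% limit were chosen after seeing the data. In small intestinal tissue, stem-like cells over the rest of the epithelium gave S ratios of 2.13 with looser cells, 2.19 with stricter cells, 2.30 with doublets kept and 2.30 with cell cycle genes put back into the clustering, and 2.63 without mitochondrial and ribosomal protein genes. The G2/M ratios were 1.93, 2.06, 2.25 (genes put back), 2.39 (without mitochondrial and ribosomal protein genes) and 1.98 (mean of cells). In large intestinal tissue the S ratio became 0.73 with stricter cells, 0.98 with doublets, 0.94 with genes put back and 1.16 without mitochondrial and ribosomal protein genes, and the G2/M ratio 0.96 with looser cells, 0.66 with stricter cells, 0.87 with doublets, 1.22 with genes put back, 1.04 without mitochondrial and ribosomal protein genes and 0.89 as the mean of cells. The number of members departing from their phase was 3, and became 5 with 5 or more member UMIs, 0 with cells thinned first and 0 with the 0.3% limit. For spots with a crypt gene UMI in the large intestine, the S ratio became 0.89 and the G2/M ratio 1.05 without mitochondrial and ribosomal protein genes, and 1.29 and 1.63 with no thinning. The cause of these shifts was not tested. The remaining 103 values for main comparisons kept their direction and stayed within the spread set for them. With either section left out, the small over large intestinal ratio ranged from −0.68 to −0.29 for S and from −0.93 to −0.42 for G2/M genes, and the crypt ratios from 0.78 to 1.10 for S and from 0.95 to 1.36 for G2/M genes. No paired analysis was possible because no result comes from a test and the section numbers do not pair the tissues. The least captured member had 69 and 47 UMIs in the small intestinal sections, the lowest counts of any library. It had 130 and 135 UMIs in the large intestinal sections and 132 UMIs in small intestinal tissue cells.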
